A study of Mus musculus with 22 samples.

Results

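Genes of cell division were followed in the intima of the mouse aorta, the inner layer that carries the endothelium. They were 49 genes of DNA replication and mitosis, taken as a list of gene names and not by their values in these samples. Genes, lists and tests were nevertheless chosen with earlier results of these data known. Of these, 47 were found among the 11807 genes that the array names, and where a gene had several probe sets the one with the highest average signal was taken. Ccnb1 and Cdca8 were named by no single-gene probe set and are not analysed here. All values are log2 signals, so that a difference of 1 is a 2-fold change.

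Cells labelled as aortic endothelium were scraped from the opened aortas of C57BL/6 mice on chow, and their RNA was amplified and hybridised to 22 arrays in 6 groups. Fresh intima came from wild-type mice (n = 6, replicates 7, 8, 12, 13, 14 and 15) and from ApoE -/- mice (n = 4, replicates 3 to 6), all 4 weeks old. The knockout mice lack apolipoprotein E and are labelled hyperlipidemic with no lesions yet. Opened wild-type aortas were also kept for 4 h in DMEM with 1% serum (n = 3, replicates 9, 10 and 11), or in this medium with 1 of 3 additions. These were lipopolysaccharide (LPS, a bacterial activator of endothelium, 4 ng/mL, replicates 3, 4 and 10), oxidized low-density lipoprotein (oxLDL, 50 µg/mL, replicates 14, 15 and 16) and oxPAPC, a mixture of oxidized phospholipids (50 µg/mL, replicates 11, 12 and 13), with n = 3 each. The labels give no age for the incubated aortas and do not give the number of animals behind an array. Incubation therefore cannot be told apart from a difference in age or handling, and the p-values cover no more than array-to-array spread, part of which may be technical.

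A dividing cell first passes the decision to enter the cycle, driven by D cyclins and their kinases, then copies its DNA with the MCM helicase and the sliding clamp PCNA, and then builds a spindle to part the chromosomes. The genes of the late steps are transcribed together and are kept silent in resting cells by a repressor complex, DREAM, which binds promoters through CHR or E2F elements. CCAAT boxes, bound by the activator NF-Y, often stand beside them. Endothelium of the adult aorta divides rarely, while that of young animals divides more, and Mki67, the antigen used to stain cycling cells, is the common marker of such cells.

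Across genes, Pearson's r was 0.977 to 0.991 between arrays of 1 group and 0.911 to 0.938 between a fresh and an incubated array. Apoe itself lay below the 40th percentile of every array. It measured 3.04 to 3.23 on the knockout arrays and 3.78 to 4.35 on the fresh wild-type arrays, without overlap, and 3.06 to 3.18 on the oxPAPC arrays, within the knockout range. The LPS arrays, at 3.08 to 3.55, overlapped that range, while medium gave 3.63 to 3.85 and oxLDL 3.57 to 3.89. Of 14 endothelial markers, 13 lay above the 40th percentile of every array of each group. The 40th percentile, 4.58 to 4.71, served as the level filter, since the deposited values hold no detection call. A gene entered a test if the number of arrays above it was no lower than the size of the smallest group compared. Of the 47 genes, 14 lay above it on all 22 arrays, 13 on none and 20 on some. The test was limma's moderated test adjusted by Benjamini-Hochberg across every gene in the fit, and a gene passed at an adjusted p under 0.05. Values with ± are standard errors of that fit, unless SD is written.

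The promoters below are examples, picked with the results and the elements known, to show how promoters of genes that fell or rose after incubation can look. Several genes with larger changes are not shown. Mki67, Top2a, Ube2c and Kif11 fell and carry CHR and CCAAT elements. Cenpe and Rrm1 fell without a CHR element in these stretches, Cenpe with CCAAT and Rrm1 with CCAAT and E2F. Pcna and Mcm3 rose and carry CCAAT but no CHR element here. Beyond its stretch, Mcm3 has E2F matches at positions 19, 20 and 39 after its start. Each stretch holds 150 bases, 5′ to 3′, and ends just before the outermost start annotated for the gene by RefSeq on GRCm38.p6, so that no transcribed base of the gene is included. Capitals mark the elements searched for on both strands.

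Mki67, chr7:135716451-135716600, minus strand: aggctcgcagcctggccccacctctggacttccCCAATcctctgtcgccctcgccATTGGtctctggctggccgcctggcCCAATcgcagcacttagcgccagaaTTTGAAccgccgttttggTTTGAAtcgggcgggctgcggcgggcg
Top2a, chr11:99024200-99024349, minus strand: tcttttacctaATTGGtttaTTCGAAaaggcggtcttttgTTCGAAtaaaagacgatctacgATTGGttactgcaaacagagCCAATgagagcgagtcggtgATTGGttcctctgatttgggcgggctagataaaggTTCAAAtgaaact
Ube2c, chr2:164769779-164769928, plus strand: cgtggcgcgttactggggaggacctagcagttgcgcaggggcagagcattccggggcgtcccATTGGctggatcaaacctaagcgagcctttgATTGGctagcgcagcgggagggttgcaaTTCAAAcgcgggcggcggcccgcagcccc
Kif11, chr19:37376232-37376381, plus strand: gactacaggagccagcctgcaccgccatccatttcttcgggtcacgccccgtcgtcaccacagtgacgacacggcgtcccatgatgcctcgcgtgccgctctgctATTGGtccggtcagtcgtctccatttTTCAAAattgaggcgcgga
Cenpe, chr3:135212413-135212562, plus strand: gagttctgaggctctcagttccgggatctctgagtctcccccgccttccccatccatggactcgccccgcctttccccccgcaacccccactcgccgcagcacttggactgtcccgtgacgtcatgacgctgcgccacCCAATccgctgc
Rrm1, chr7:102441545-102441694, plus strand: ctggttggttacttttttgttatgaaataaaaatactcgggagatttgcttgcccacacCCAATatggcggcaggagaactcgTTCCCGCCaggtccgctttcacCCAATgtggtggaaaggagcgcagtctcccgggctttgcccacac
Pcna, chr2:132253181-132253330, minus strand: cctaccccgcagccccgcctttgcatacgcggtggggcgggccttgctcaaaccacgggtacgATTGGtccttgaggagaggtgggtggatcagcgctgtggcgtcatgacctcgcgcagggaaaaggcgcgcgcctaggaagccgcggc
Mcm3, chr1:20820313-20820462, minus strand: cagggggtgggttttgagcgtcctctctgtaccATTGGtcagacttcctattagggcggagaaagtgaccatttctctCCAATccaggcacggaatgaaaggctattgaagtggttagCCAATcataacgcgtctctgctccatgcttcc

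The stretch of Mki67 holds 2 CHR and 3 CCAAT elements, and that of Top2a 3 CHR and 4 CCAAT elements. Ube2c has 1 CHR and 2 CCAAT elements, and Kif11 has 1 of each. The Cenpe stretch has 1 CCAAT element. The Rrm1 stretch has 2 CCAAT elements and 1 E2F element. Those of Pcna and Mcm3 have 1 and 3 CCAAT elements. The letters searched were TTTGAA and TTCGAA for CHR, CCAAT for itself, and TTCCCGCC, TTTCCCGC, TTTGGCGC and TTTCGCGC for E2F, of which the first 2 can overlap.

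Over RefSeq's whole table of promoters, with windows of 300 bases from 250 before to 50 after a start, 38 of the 47 genes had a window and together had 43. A CHR element stood in 51.2% of these windows and in 19.2% of all 32851 windows. CCAAT stood in 81.4% against 37.4%, and E2F in 20.9% against 3.49%. Both CHR and CCAAT stood in 22 of the 43 (51.2%) against 7.52% of all windows. Among the genes that fell in medium this pair stood in 9 of 15 windows (60%), among those that rose in 0 of 2, and among the rest in 13 of 26 (50%). The pair was thus about as frequent in the windows of genes that did not pass or enter the test as in those of genes that fell. E2F stood in 1 of 15 windows of genes that fell, 1 of 2 of those that rose and 7 of 26 of the rest. A match is a description of letters, not a measured site.

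**Figure D1:**
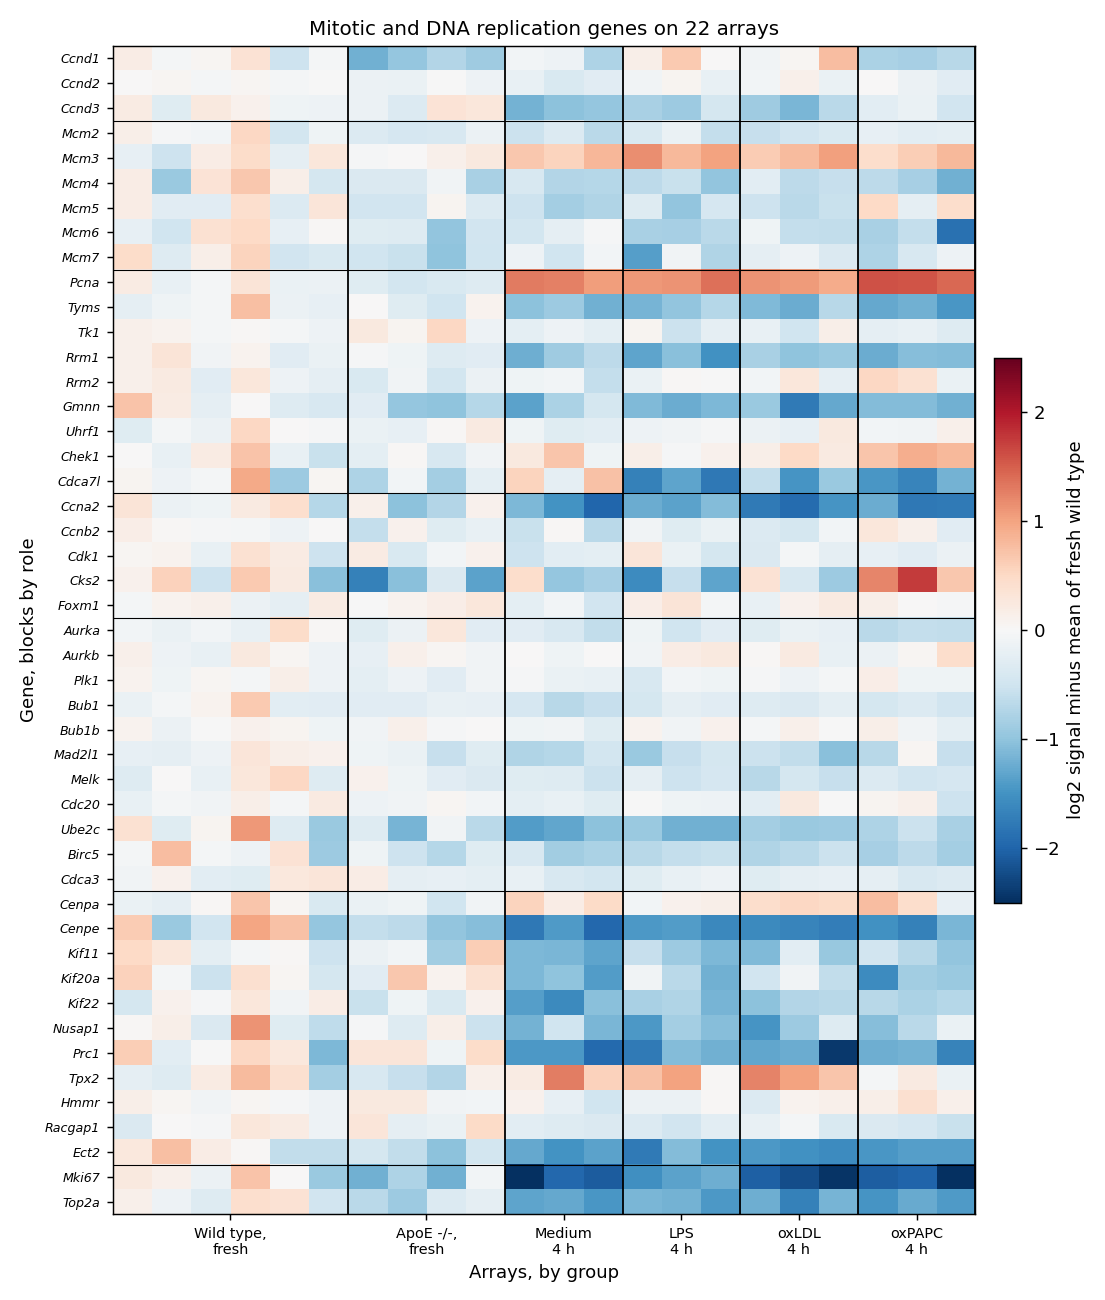
Log2 signal of the 47 genes (rows, in blocks by role) on the 22 arrays (columns, by group), each minus the mean of the 6 fresh wild-type arrays; colours end at 2.5 on either side, and 2 values lie past that. In the spindle block Cenpe, Kif11, Kif20a, Kif22, Nusap1, Prc1, Racgap1 and Ect2 are blue on all 12 incubated arrays, as are Mki67 and Top2a. Cenpa, Tpx2 and Hmmr of that block are not. Mean signals of Tpx2 and Cenpa are higher in medium (5.48 and 3.95) than in fresh wild type (4.80 and 3.54). Pcna and Mcm3 are red on all 12.

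The plot of all genes against the fresh wild-type mean shows where the arrays part. On the 12 incubated arrays the median gene of the set lay 0.34 to 0.58 below that mean, and on the 4 fresh knockout arrays 0.14 to 0.30 below it. The fresh wild-type arrays themselves ran from 0.16 below to 0.31 above. Replicate 13 of the fresh wild type was the highest of its group for 28 of the 47 genes, and replicate 15 the lowest for 20. Among the medium arrays, replicate 11 was lowest for 23 genes. No single array of the 17 genes described by array stood apart in its group by Dixon's test, which was applied to the fresh groups.

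After incubation in medium most genes of mitosis that could be tested were lower and the replication clamp was higher. Of 29 genes of the set that entered the test against fresh wild type, 16 fell, 2 rose and 11 did not pass. A gene near background in medium could enter through its fresh arrays alone, and for such a gene the filter favoured a fall. The passing share was 62.1%, against 58.7% of all 7508 genes tested (24.3% higher and 34.4% lower). Over all genes this was 1824 higher and 2586 lower, and 2147 and 2085 after cyclic loess. By direction, 55.2% of the set fell and 6.9% rose. The median difference was −0.85, against −0.13 for all genes tested. Without the filter it was smaller, −0.40 over all 47 genes (41 below 0), against −0.05 over all genes of the array. The share that passed was thus close to that of all genes. Among the genes that passed, Nusap1 alone had medium arrays that overlapped with the fresh ones, in a set already selected by the test. The same count over all genes is not given here, so the lack of overlap cannot be read as a trait of the set.

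Mki67 had the largest fall of the genes tested in the set. It measured between 7.47 and 9.11 on the fresh wild-type arrays (median 8.47) and 5.86, 6.44 and 6.32 on medium replicates 9, 10 and 11. All medium values lay at least a full unit under the lowest fresh one. The difference was −2.19 ± 0.29 (4.57-fold, adjusted p = 0.000102). Top2a, the topoisomerase that untangles replicated DNA, ran from 4.31 to 5.21 on fresh arrays (median 4.79) and was 3.46, 3.51 and 3.33 in medium. Its medium arrays lay close together and below the level filter, so that its fall of 1.35 on the log2 scale (SE 0.201, adjusted p = 0.000211) is measured against values near background.

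Of the genes of the spindle and of cytokinesis, 7 of 9 tested fell. Cenpe, Prc1, Ect2, Kif22, Kif11 and Nusap1 had no medium array above the level filter and entered through fresh arrays alone. Their count is thus partly set by the filter. Cenpe, the kinetochore motor, fell by 1.72 (SE 0.445, adjusted p = 0.00669). Its fresh values were spread widely, from 3.54 to 5.49 (median 4.58), and its medium values were 2.71, 3.08 and 2.55. Prc1, which bundles the midzone microtubules, ran from 4.86 to 6.60 (median 6.12) in fresh tissue and read 4.56, 4.56 and 4.05 in medium, a fall of 1.60 (SE 0.335, adjusted p = 0.00196). Only 1 fresh array, replicate 15 at 4.86, came near the medium values.

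Ect2, the exchange factor that starts the contractile ring, had fresh values of 4.00 to 5.38 (median 4.73) and medium values of 3.34, 3.14 and 3.28 (−1.37 ± 0.28, adjusted p = 0.00148). Kif22, a motor on chromosome arms, had fresh values of 4.75 to 5.48 (median 5.24) and medium values of 3.83, 3.60 and 4.16 (−1.34 ± 0.18, adjusted p = 9.53e-05). Kif11, the motor that separates spindle poles, measured 4.96 to 5.97 (median 5.47) fresh and 4.36, 4.34 and 4.17 in medium (−1.19 ± 0.20, adjusted p = 0.000462). The medium arrays were the tighter group for Ect2 and Kif11 (SD 0.106 against 0.535 and 0.106 against 0.362) but not for Kif22 (0.282 against 0.258). Kif20a, a motor of cytokinesis, measured 5.74 to 6.86 (median 6.28) and 5.17, 5.29 and 4.90 (−1.17 ± 0.24, adjusted p = 0.00169), with both groups above the level filter. Nusap1, a spindle-associated protein, fell by 0.94 (adjusted p = 0.0319), and 1 medium array, at 4.38, lay above the lowest fresh one, at 4.22. Tpx2, which activates the Aurora A kinase, measured 0.68 ± 0.34 (adjusted p = 0.105) and Hmmr −0.19 (adjusted p = 0.239).

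Among mitotic cyclins and their partners, Ccna2, the cyclin of S phase and mitotic entry, fell by 1.53 (SE 0.258, adjusted p = 0.000485). Fresh arrays gave 6.07 to 7.21 (median 6.83) and medium arrays 5.67, 5.29 and 4.79, all above the level filter. Cks2, a small subunit of cyclin-dependent kinases, gave 6.18, 4.78 and 4.91 in medium and did not pass (−0.45 ± 0.41, adjusted p = 0.368). Its medium replicate 9 lay within the upper fresh values and the other two near the lowest. Foxm1, the transcription factor of mitotic genes, measured −0.26 (adjusted p = 0.114). Ube2c, the ubiquitin-conjugating enzyme of the anaphase-promoting complex, fell by 1.24 (SE 0.35, adjusted p = 0.0106), from fresh values of 3.80 to 5.82 (median 4.61) to 3.33, 3.42 and 3.70. Cdc20, the activator of that complex, measured −0.25 (adjusted p = 0.0891), although its arrays did not overlap.

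Replication genes went both ways. Pcna rose 2.30-fold (1.20 ± 0.14, adjusted p = 4.41e-05), from 9.56 to 10.05 on fresh arrays (median 9.64) to 11.03, 10.995 and 10.78 in medium. Mcm3, a subunit of the helicase, rose by 0.68 (SE 0.202, adjusted p = 0.0137), from 4.24 to 5.20 (median 4.74) to 5.42, 5.29 and 5.57. The rises of both genes left no overlap between groups. The other helicase subunits tested did not follow: Mcm4 measured −0.62 ± 0.30, Mcm6 −0.24 ± 0.21 and Mcm7 −0.23 ± 0.24 (adjusted p = 0.0976, 0.354 and 0.439). Of the enzymes that make deoxynucleotides, Tyms and Rrm1 were tested and fell, both without overlap. Rrm2 and Tk1 did not enter the test, with means of 4.29 and 3.77 in fresh wild type and 4.03 and 3.57 in medium. Tyms, thymidylate synthase, measured 6.68 to 7.65 fresh (median 6.78) and 5.89, 6.00 and 5.72 in medium (−1.04, adjusted p = 0.00131). Rrm1, the large subunit of ribonucleotide reductase, measured 7.75 to 8.37 (median 8.03) and 6.81, 7.16 and 7.39 (−0.92, adjusted p = 0.000742). Gmnn, geminin, the inhibitor of origin licensing, fell by 0.85 (adjusted p = 0.0162), and its medium replicate 11 at 4.68 lay just under the lowest fresh array at 4.71. Cdca7l, a nuclear protein that binds Myc, and Uhrf1, which keeps DNA methylation through replication, did not pass (0.36 and −0.23).

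The D cyclins, which link growth signals to the cycle, differed among themselves. Ccnd3 fell 2.08-fold (−1.06 ± 0.14, adjusted p = 0.000106), from 6.23 to 6.77 (median 6.54) to 5.35, 5.52 and 5.57. The small fall of Ccnd2 (−0.28 ± 0.09, adjusted p = 0.0248) lay between 10.16 to 10.27 on fresh arrays (median 10.22) and 10.02, 9.84 and 9.94 in medium. Ccnd1 measured 8.62, 8.57 and 7.92 in medium and 8.19 to 9.06 fresh (median 8.70), with overlap, and did not pass (−0.33 ± 0.21, adjusted p = 0.195).

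**Figure D2:**
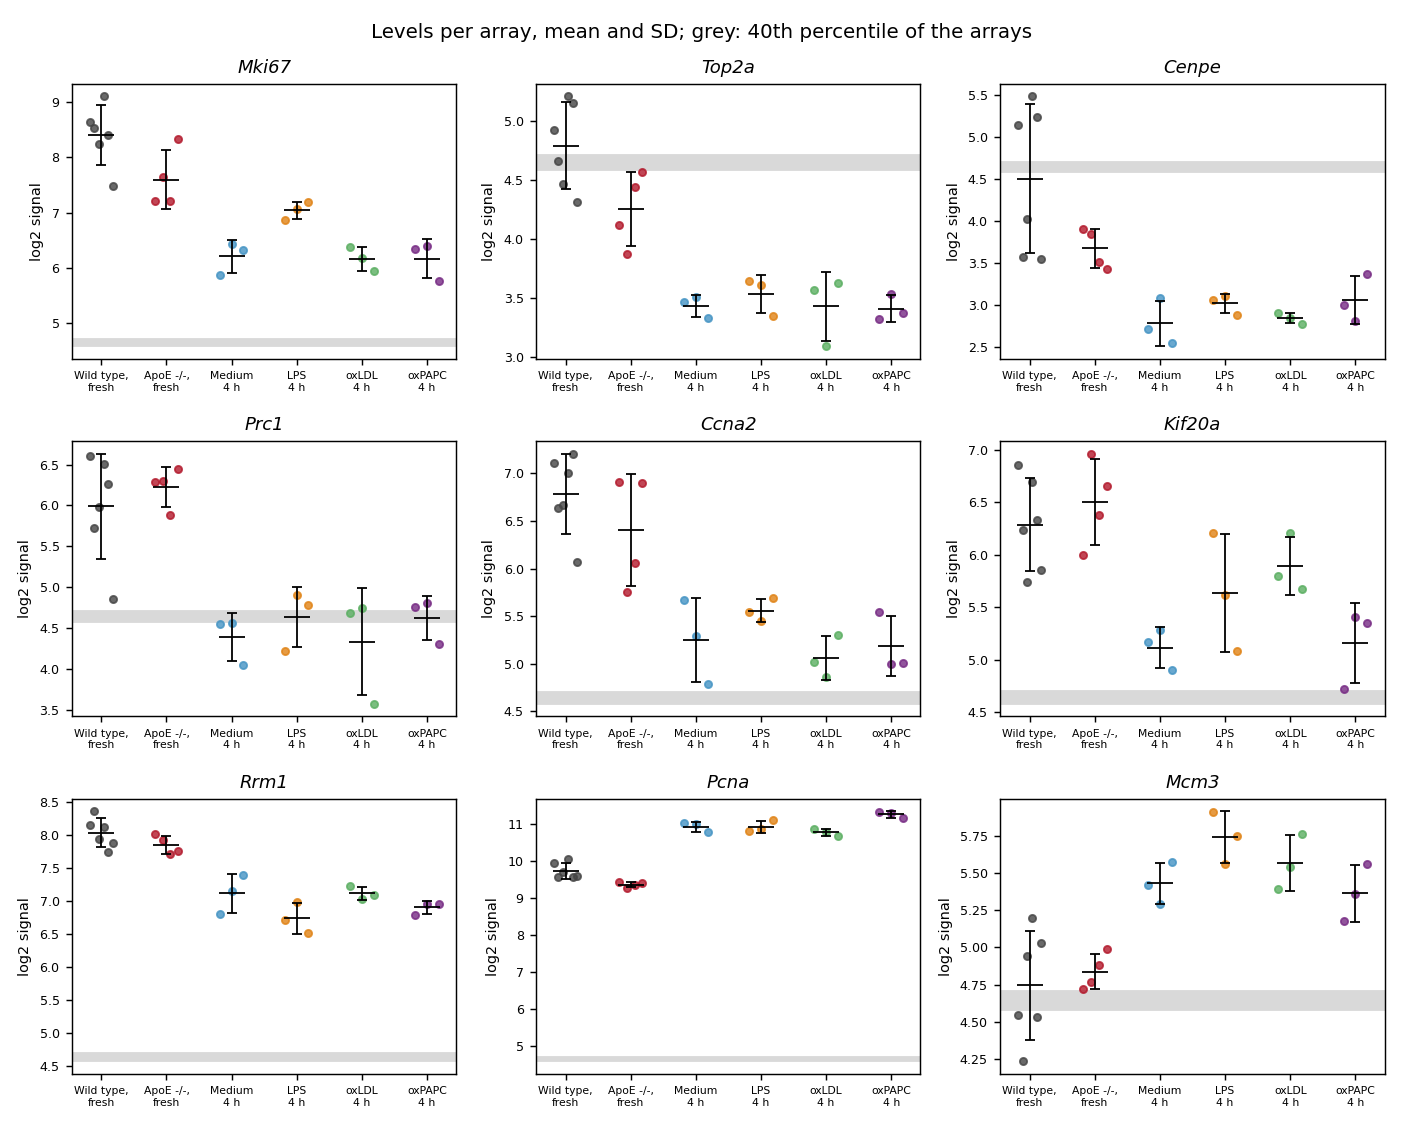
Log2 signal of 9 genes per array (points) in the 6 groups, with the mean and SD of each group as bars; the grey band spans the 40th percentiles of the 22 arrays, and each panel has its own axis. Mki67, Ccna2, Kif20a and Rrm1 stay above the band after incubation, Top2a, Cenpe and Prc1 reach or pass below it, and Pcna and Mcm3 are higher in all 4 incubated groups.

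**Figure D3:**
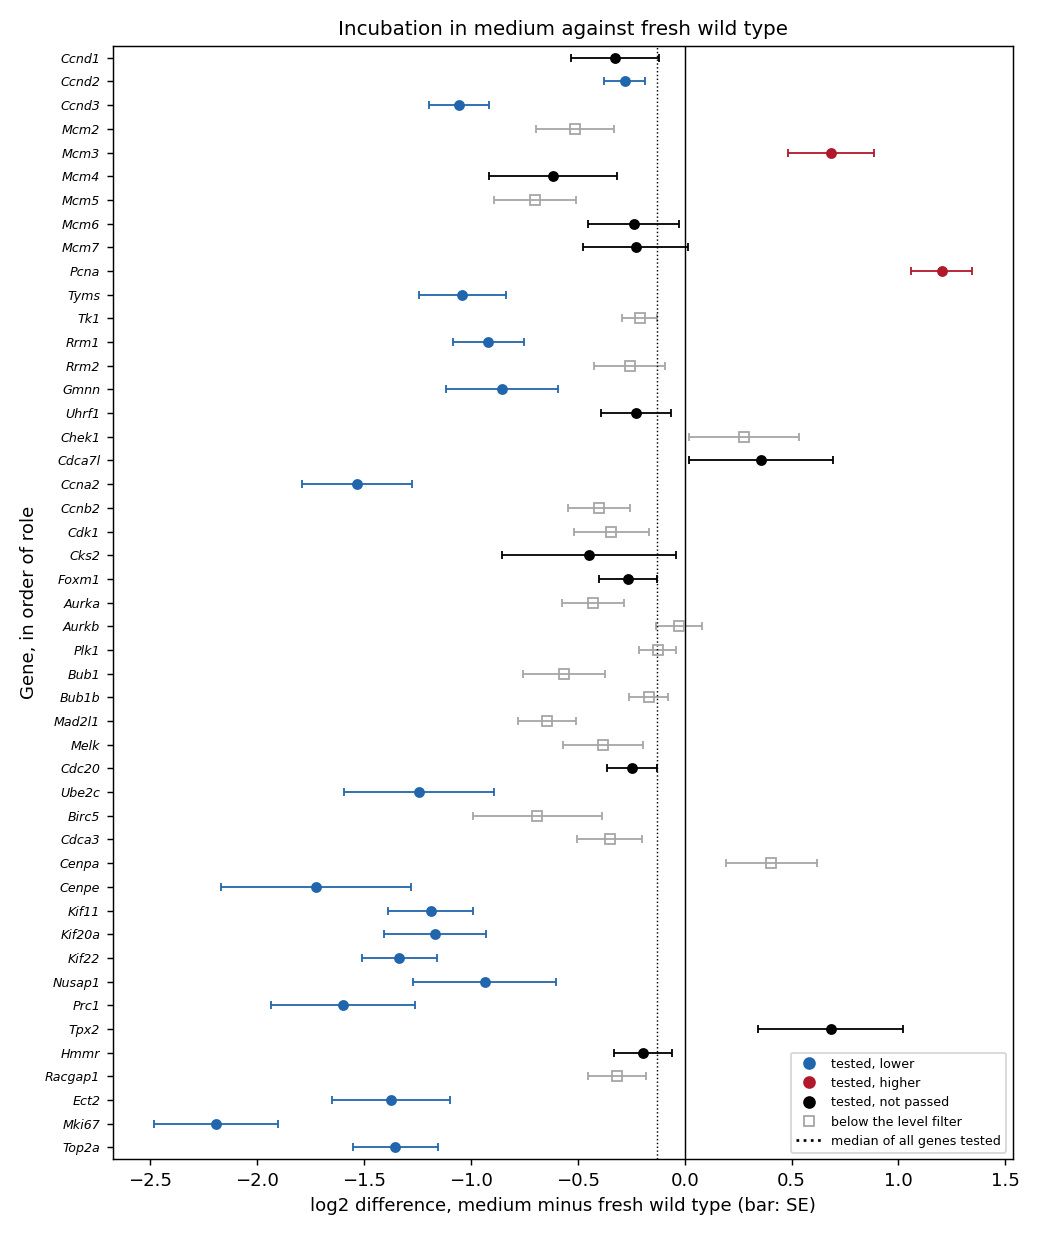
Log2 difference of medium minus fresh wild type for the 47 genes with its standard error; blue points fell, red points rose, black points were tested and did not pass, open squares did not enter the test, and the dotted line is the median of all genes tested (−0.13). Mki67 stands at −2.19 and Pcna at 1.20.

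Several of the falls ended near background. Of the 16 genes that fell, 7 kept both group means above the level filter (Ccnd2, Ccnd3, Tyms, Rrm1, Ccna2, Kif20a and Mki67). For 7 others only the fresh mean was above it, and for Cenpe and Ect2 neither. These 9 could not enter the test on their medium arrays alone, so the filter favoured their falls. The 18 genes that did not enter the test included Cdk1, Plk1, Aurka, Aurkb, Ccnb2, Birc5, Bub1, Mad2l1 and Mcm2. Of these 18, 16 had a lower mean in medium. With no filter on level 5 of them also fell, Mcm2, Mcm5, Aurka, Bub1 and Mad2l1, by 0.43 to 0.70. That fit called 40.8% of all genes, so 5 of 18 is no more than the share among all genes. The 16 further probe sets of the genes that passed differed in the same direction, but 9 of them did not lie above the 40th percentile on all arrays of either group, and several differed little. The second probe set of Top2a differed by −0.07, that of Kif11 by −0.17, that of Ccna2 by −0.26 and 1 of Tyms by −0.03. Fewer dividing cells and less RNA per cell cannot be told apart in these bulk samples.

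Of the 18 genes, 14 passed under every alternative in which they were tested, Mki67 between −2.38 and −2.02 and Pcna between 1.16 and 1.28. Ccnd2 did not pass without medium replicate 10 or 11 or after median centring (−0.28 to −0.20, adjusted p = 0.0537 to 0.104), Mcm3 without medium replicate 11 (0.61, adjusted p = 0.0535), and Gmnn without medium replicate 9 (−0.61, adjusted p = 0.0923). Nusap1 did not pass without fresh replicate 7 or 8, without medium replicate 9 or 11, after cyclic loess or with no filter (−0.94 to −0.81, adjusted p = 0.0506 to 0.115). Cyclic loess moved the median of all genes from −0.13 to 0.00 and left 15 of the set lower and 3 higher.

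Other genes of the cycle, from lists outside the set, also differed, as did 58.7% of all genes tested (24.3% higher and 34.4% lower). All 11 tested of 31 other mitotic genes fell (median −1.06), led by the condensin subunit Smc2 (−1.87 ± 0.33, adjusted p = 0.00062), the contractile ring scaffold Anln (−1.69 ± 0.33) and the phosphatase Cdc25b (−1.65 ± 0.22). Medium means of these genes, 3.22, 3.33 and 4.23, lay below the level filter, so they could not enter the test without their fresh arrays. The filter thus favoured falls here too, and the count is no independent support. Of 21 tested replication genes 11 fell and 4 rose (median −0.66). The single-strand binding subunit Rpa3 and the GINS subunit Gins4 each fell by 1.68, whereas Cdc6, which loads the MCM helicase, rose by 2.12 (SE 0.235, adjusted p = 2.99e-05) and its partner Cdt1 by 1.12.

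Regulators of entry into the cycle moved both ways. The counts below stand beside 24.3% of all genes tested that rose and 34.4% that fell. Among 13 tested of 18, 4 rose and 5 fell, with the growth-promoting factor Myc at 4.09 ± 0.40 (adjusted p = 1.24e-05), the kinase inhibitor Cdkn1a at 3.42 ± 0.17 (adjusted p = 1.95e-07) and the kinase Cdk6 at −1.11 ± 0.17. Of 11 early antiproliferative genes 9 rose and none fell in limma (median 1.01, with 9 at an unadjusted p under 0.05), led by the stress genes Gadd45a (4.22 ± 0.35), Gadd45b (3.67 ± 0.17) and Gadd45g (1.52 ± 0.15). Of 7 tested DREAM and MuvB factors 2 fell and 1 rose. The pocket protein Rbl2 fell by 1.70 (SE 0.135, adjusted p = 3.59e-06) and the MuvB subunit Lin9 by 1.11, while E2f5 rose by 0.45.

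Markers of other cell types moved with the incubation, in which 24.3% of all genes tested rose and 34.4% fell. Of 9 smooth muscle markers 7 fell and none rose (median −1.0), and their summed log2 signal ran from 13.06 to 13.73 fresh and from 11.85 to 12.87 in medium. Of 12 macrophage markers 8 were tested and all 8 rose (median 1.33, summed 8.09 to 9.10 fresh and 9.94 to 10.08 in medium). Of the 12, only 2 lay above the level filter on every fresh wild-type array and 8 on every medium array. The filter thus favoured rises in this count. All 5 erythroid markers fell (summed 12.66 to 13.40 and 11.91 to 12.52), and of 6 fibroblast markers 4 fell and 2 rose (12.25 to 12.55 and 10.62 to 11.19). Endothelial markers gave 4 rises and 1 fall of 13 (13.15 to 13.59 and 13.37 to 13.55). No B cell marker of 5 passed the level filter, and no T cell marker of 3 or platelet marker of 3 passed the test. The part of these cells in the falls of the mitotic genes was not tested.

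In fresh intima of ApoE -/- mice 1 gene of the set differed, the cyclin Ccnd1, which was 1.92-fold lower (−0.94 ± 0.16, adjusted p = 0.0417). It measured 7.50, 7.73, 7.97 and 7.81 on knockout replicates 3, 4, 5 and 6 and 8.19 to 9.06 on the wild-type arrays (median 8.70). No knockout array reached the lowest wild-type one. Its other probe sets differed by −0.86 and −0.74. Of 26 genes tested 1 fell (3.85%) and none rose in limma, against 0.427% of all 7264 genes (0.138% higher and 0.289% lower), and 8 of the 26 (30.8%) had an unadjusted p under 0.05, against 18.3% of all genes. The call was lost without any 1 of the 4 knockout arrays, without wild-type replicate 7, 8 or 13, or with no filter, at values of −1.01 to −0.86 (adjusted p = 0.0539 to 0.133).

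Other genes of the set did not pass. The difference was below 0 for 20 of the 26 tested and 38 of all 47, with a median of −0.21 over the tested against −0.02 for all genes. Cks2 measured 4.05, 4.68, 5.38 and 4.40 in the knockout and 4.69 to 6.40 in wild type (median 5.90), with a difference of −1.11 ± 0.34 (adjusted p = 0.142). Mki67 gave 7.20, 7.64, 7.21 and 8.34, so that replicate 6 lay within the wild-type range of 7.47 to 9.11 and 2 of the others below it (−0.80 ± 0.30, adjusted p = 0.196). Top2a, with 4.12, 3.87, 4.44 and 4.57, differed by −0.54 ± 0.20 (adjusted p = 0.2).

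The licensing inhibitor Gmnn (−0.74 ± 0.22, adjusted p = 0.134), the helicase subunits Mcm7 (−0.64 ± 0.22, adjusted p = 0.17) and Mcm6 (−0.52 ± 0.20, adjusted p = 0.218) and Pcna (−0.37 ± 0.12, adjusted p = 0.153) did not pass either. Pcna values, 9.43, 9.28, 9.35 and 9.41, all lay below the lowest wild-type value of 9.56. Such separation held for 3 of the 47 genes, and its share over all genes is not given here. The spindle genes showed no common direction: Prc1 measured 0.24 ± 0.29, Kif20a 0.22 ± 0.24 and Kif11 −0.12 ± 0.26. Ccnd2 (−0.12 ± 0.08), Ccnd3 (0.03 ± 0.16) and Cdca7l (−0.48 ± 0.29) did not pass.

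None of the 13, 21, 11, 6 and 11 genes tested from the lists of entry, replication, mitosis, DREAM and antiproliferative genes passed in limma, with 2, 4, 2, 0 and 1 at an unadjusted p under 0.05. Smooth muscle markers were higher without passing (median 0.48, 7 of 9 at an unadjusted p under 0.05), with a summed log2 signal of 13.65 to 13.74 in the knockout and 13.06 to 13.73 in wild type. Erythroid markers lay lower (median −0.31, 0 of 5 passed), and 1 of 3 platelet markers fell. Endothelial markers had a median of 0.04. The part of these cells in the Ccnd1 difference was not tested.

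**Figure D4:**
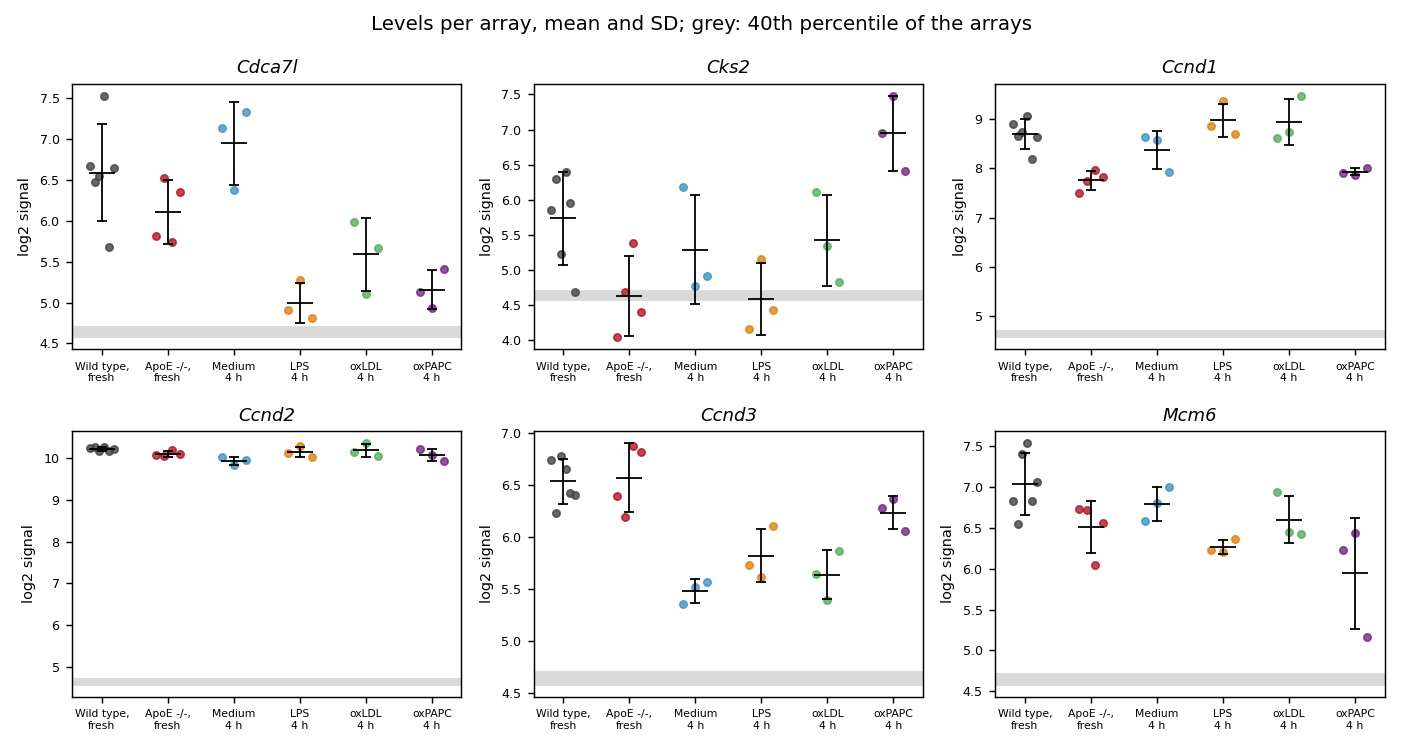
Log2 signal of 6 genes per array (points) in the 6 groups, with mean and SD; the grey band spans the 40th percentiles of the arrays, and each panel has its own axis. Cdca7l is lower with each of the 3 additions than in medium, Cks2 is highest with oxPAPC, Ccnd1 is low in ApoE -/- and oxPAPC arrays, and Ccnd3 is higher with oxPAPC than in medium.

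The 3 additions were each compared with the same 3 medium arrays, so their differences share that group. Of the set, 22 genes entered each test. Cdca7l fell in all 3. It measured 7.14, 6.37 and 7.33 on medium replicates 9, 10 and 11. With LPS it was 4.91, 5.28 and 4.81 on replicates 3, 4 and 10 (−1.95 ± 0.27, adjusted p = 0.00262). With oxPAPC it was 5.13, 4.93 and 5.41 on replicates 11, 12 and 13 (−1.79 ± 0.27, adjusted p = 0.00211). With oxLDL it was 5.99, 5.11 and 5.67 on replicates 14, 15 and 16 (−1.36 ± 0.27, adjusted p = 0.0235). No array with an addition reached the lowest medium array. The falls with LPS and oxPAPC passed under all 12 alternatives, while that with oxLDL was lost without medium replicate 9 or 11 or oxLDL replicate 15 or 16 (−1.40 to −1.12, adjusted p = 0.0583 to 0.0958). Direct comparisons of the additions gave −0.59 ± 0.27 for LPS against oxLDL (adjusted p = 0.238), −0.16 ± 0.27 for LPS against oxPAPC (adjusted p = 0.762) and 0.43 ± 0.27 for oxLDL against oxPAPC (adjusted p = 0.33), none of which passed. Fresh arrays ran from 5.68 to 7.53 in wild type (median 6.60) and read 5.81, 6.52, 5.74 and 6.35 in the knockout.

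With LPS 1 gene of the set rose and 1 fell (9.09% of 22), against 9.05% of all 7550 genes (3.36% higher and 5.68% lower). The median difference was 0.15, against −0.03. Mki67, low after incubation, was higher with LPS than in medium: 6.87, 7.06 and 7.18 against 5.86, 6.44 and 6.32, with no overlap (0.83 ± 0.21, adjusted p = 0.0321). All 3 LPS arrays stayed below the lowest fresh wild-type array (7.47). The call was lost without medium replicate 9 or 11, without any 1 of the LPS arrays, or with all 22 arrays in 1 fit (0.66 to 0.91, adjusted p = 0.0564 to 0.112). Ccnd1 (8.85, 9.36 and 8.71, difference 0.60 ± 0.26, adjusted p = 0.153), Foxm1 (0.41), Ccnd3 (0.34) and Ccnd2 (0.21) had arrays above all medium arrays but did not pass. For Ccnd2 the lowest LPS array, at 10.026, barely exceeded the highest medium array, at 10.022. A second Ccnd1 probe set went the other way, at −0.19. Mcm6 lay below all medium arrays, at 6.23, 6.21 and 6.37, and did not pass (−0.53 ± 0.28, adjusted p = 0.237). Of the 47 genes, 10 had LPS arrays that did not overlap with medium. The same count over all genes is not given here, so the lack of overlap cannot be read as a result.

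Of the other lists, 4 of 21 replication genes fell with LPS, among them the licensing factors Cdt1 (−1.54 ± 0.26, adjusted p = 0.00651) and Cdc6 (−1.48 ± 0.22) and the polymerase subunit Pola1 (−1.20 ± 0.17). The retinoblastoma gene Rb1 (−0.99 ± 0.19, adjusted p = 0.0137) and Cdkn1a (−0.55 ± 0.14, adjusted p = 0.0344) fell among 14 entry genes. None of 6 mitotic and 6 DREAM genes passed in limma, with 0 of either list at an unadjusted p under 0.05. Smooth muscle markers rose in 3 of 9 (median 0.81), endothelial markers fell in 3 of 13, and 4 of 11 macrophage markers fell and 1 rose. Over all genes tested, 3.36% rose and 5.68% fell with LPS. The part of these cells in the Mki67 and Cdca7l differences was not tested.

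With oxLDL, Cdca7l was the 1 gene of 22 that passed (4.55%), against 2.81% of all genes (0.742% higher and 2.07% lower). Over all genes 56 were higher and 156 lower, and median centring gave 92 and 135. The median of the set was 0.13. Mki67 was 6.37, 6.18 and 5.94 and did not pass (−0.04 ± 0.21, adjusted p = 0.922). Kif20a gave 5.80, 6.20 and 5.67, above all medium arrays, and did not pass (0.78 ± 0.28, adjusted p = 0.135). Such separation from medium held for 8 of the 47 genes, and its share over all genes is not given here. Among the other lists the replication factor Rpa2 rose (0.81 ± 0.15, adjusted p = 0.0179), while the nucleotide enzyme Dut (−0.96 ± 0.18, adjusted p = 0.0198) and the spindle protein Ckap5 (−0.96 ± 0.23, adjusted p = 0.0454) fell. Among markers, 2 of 6 fibroblast (Lum and Dcn), 1 of 13 endothelial (Emcn), 1 of 11 macrophage (C1qa) and 1 of 4 erythroid markers (Hba-a2) fell. Smooth muscle markers had a median of 0.69, with 0 of 9 passing in limma and 6 at an unadjusted p under 0.05 (summed log2 signal 12.79 to 13.23, against 11.85 to 12.87 in medium). Their part in the Cdca7l difference was not tested.

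With oxPAPC 2 genes of the set rose and 2 fell (18.2% of 22), against 21.3% of all genes (8.34% higher and 12.9% lower), with a median of 0.00. Ccnd3 rose by 0.75 (SE 0.17, adjusted p = 0.0115), with 6.28, 6.37 and 6.06 on replicates 11, 12 and 13 against 5.35, 5.52 and 5.57 in medium. The oxPAPC values thus overlapped the fresh wild-type range of 6.23 to 6.77, and the call passed under all 12 alternatives. Cks2 rose 3.15-fold (1.66 ± 0.43, adjusted p = 0.0207), to 6.96, 7.48 and 6.40, above every medium array. Its second probe set differed by 1.95. The Cks2 call was lost without medium replicate 10 or 11 or oxPAPC replicate 11 or 12 (1.39 to 1.65, adjusted p = 0.0613 to 0.0838).

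Mcm6 fell by 0.85 with oxPAPC (SE 0.28, adjusted p = 0.0479), and this rested on few arrays. It measured 6.23, 6.43 and 5.16 on replicates 11, 12 and 13, against 6.59, 6.81 and 7.00 in medium. Without replicate 13 the difference was −0.46 (adjusted p = 0.0908). The call was also lost without oxPAPC replicate 11 or any 1 of the medium arrays, after median centring or loess, and with no filter (−0.999 to −0.46, adjusted p = 0.056 to 0.131). Mki67 gave 6.34, 6.40 and 5.76 with oxPAPC and did not pass (−0.04 ± 0.21, adjusted p = 0.91). Pcna gave 11.32, 11.31 and 11.16, above all medium arrays, and did not pass (0.33 ± 0.13, adjusted p = 0.0984). Such separation from medium held for 15 of the 47 genes, and its share over all genes is not given here.

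Outside the set, cyclin E1 rose with oxPAPC (Ccne1, 0.73 ± 0.12, adjusted p = 0.00321) and the kinase Cdk4 fell (−1.05 ± 0.29, adjusted p = 0.0262). Rbl2, which had fallen in medium, was 1.35 ± 0.32 higher with oxPAPC (adjusted p = 0.014), and the antiproliferative genes Tob1 and Tob2 rose by 1.38 and 1.15. Of 21 replication genes 1 rose (Rpa2, 0.73) and 1 fell (Pola1, −0.60). Over all genes tested, 8.34% rose and 12.9% fell with oxPAPC. Among marker genes, 8 of 13 endothelial and 7 of 11 macrophage markers fell, and 6 of 9 smooth muscle markers rose (medians −1.10, −0.82 and 1.04). The summed endothelial log2 signal was 12.81 to 13.16 with oxPAPC and 13.37 to 13.55 in medium. What part these cells had in the differences of the set was not tested.

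Direct comparisons tested whether the additions differed. Doses were not matched, since LPS was given at 4 ng/mL and the oxidized lipids at 50 µg/mL. Between LPS and oxLDL 1 of 22 genes passed (4.55%), against 5.07% of all genes (2.21% higher and 2.86% lower). This was Mki67, 0.87 ± 0.21 higher with LPS (adjusted p = 0.0329). All genes gave 167 higher and 216 lower, and 221 and 164 after cyclic loess. Between LPS and oxPAPC 3 passed (13.6%), against 8.65% of all genes (4.69% higher and 3.96% lower). Mki67 was 0.87 higher with LPS (adjusted p = 0.0246), Ccnd1 1.05 higher (SE 0.256, adjusted p = 0.0271), and Cks2 2.36 lower, at −2.36 ± 0.43 (adjusted p = 0.00691). The Mki67 calls against medium, oxLDL and oxPAPC rest on the same 3 LPS arrays and are not independent. Calls of Cks2 and Ccnd1 that involve oxPAPC share its 3 arrays in the same way. The Cks2 arrays were 4.17, 5.15 and 4.43 with LPS, all below the lowest oxPAPC array of 6.40, and this call passed under all 12 alternatives.

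Between oxLDL and oxPAPC 4 genes passed (18.2%), against 12.4% of all genes (7.8% higher and 4.57% lower). Ccnd1 was 1.02 ± 0.26 higher with oxLDL (adjusted p = 0.0245), at 8.61, 8.74 and 9.47 against 7.90, 7.87 and 8.01. Lower with oxLDL were Cks2 (−1.52 ± 0.43, adjusted p = 0.0388), Ccnd3 (−0.60 ± 0.17, adjusted p = 0.0396) and Pcna (−0.49 ± 0.13, adjusted p = 0.0344). Tpx2 did not pass, with 6.04, 5.80 and 5.49 against 4.76, 5.03 and 4.63 (0.97 ± 0.29, adjusted p = 0.0503). Its second probe set differed by 0.18 and did not lie above the 40th percentile on all arrays of either group. Over all genes 589 were higher and 345 lower, and 461 and 449 after cyclic loess.

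Endothelial markers moved in these comparisons too. Against oxPAPC, 5 of 13 were higher with oxLDL (median 0.73), among them Cldn5 (1.97), Tie1 (1.26) and Vwf (1.15), and none lower. With LPS 3 of 13 were higher than with oxPAPC (median 0.45) and none lower. Between LPS and oxLDL 1 was higher and 1 lower. The summed endothelial log2 signal was 13.12 to 13.41 with LPS, 13.15 to 13.42 with oxLDL and 12.81 to 13.16 with oxPAPC. The macrophage marker Fcgr1 was higher with LPS than with oxLDL (0.85) and oxPAPC (1.25), and the erythroid marker Hba-a2 lower with oxLDL than with LPS and oxPAPC. Their part in the differences of Ccnd1, Ccnd3, Cks2, Mki67 and Pcna was not tested.

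Of these direct calls, only that of Cks2 between LPS and oxPAPC outlasted the loss of any single array. The Mki67 call against oxLDL was lost without any 1 of the LPS arrays, without oxLDL replicate 15 or 16, or with all 22 arrays in 1 fit (0.77 to 0.96, adjusted p = 0.0655 to 0.109). Against oxPAPC it was lost without LPS replicate 4 or 10 or oxPAPC replicate 11, or in that joint fit (0.80 to 0.96, adjusted p = 0.0512 to 0.0835). The Ccnd1 call was lost without LPS replicate 3 or 4 or oxPAPC replicate 11 or 12 (0.85 to 1.11, adjusted p = 0.0627 to 0.117), and against oxLDL without oxLDL replicate 16 or oxPAPC replicate 11 or 12 (0.75 to 1.01, adjusted p = 0.074 to 0.0903). Between oxLDL and oxPAPC, leaving out oxPAPC replicate 11 or 12 or oxLDL replicate 15 ended each of the calls of Cks2, Ccnd3 and Pcna, as did oxLDL replicate 16 for Cks2 and Pcna and replicate 14 for Ccnd3. Their values were then −1.52 to −1.22, −0.60 to −0.48 and −0.50 to −0.43 (adjusted p = 0.061 to 0.148), with the Cks2 call also lost with no filter.

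Over the 8 comparisons, 29 of the 47 genes were tested at least once and 22 passed at least once. The 18 that were never tested, 9 of them mitotic kinases, checkpoint genes and their partners, did not clear the level filter on enough arrays. With no filter on level, a few of the low genes passed beyond those of the medium comparison. Mcm5 (0.94), Kif22 (0.61) and Ube2c (0.54) rose with oxPAPC against medium, each with both means under the 40th percentile. Chek1, the replication checkpoint kinase, was 0.73 lower with LPS than with oxPAPC (−0.73 ± 0.18), and Mcm5 0.82 lower with oxLDL than with oxPAPC (−0.82 ± 0.21). In these fits 5 of the 47 genes rose and 1 fell with oxPAPC against medium, where 15.1% of all genes passed. For LPS against oxPAPC 2 were higher and 2 lower (5.22% of all genes passed), and for oxLDL against oxPAPC 1 and 3 (7.75%).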

How the data were processed

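RNA of 22 aortic intima samples, scraped off in collagenase solution, was measured on Affymetrix 3′ expression arrays, 1 per sample. The deposited values are log2 signals. The authors used RMA (affy), as the submitters' processing notes name it without a version. This method equalises the distribution of signals between arrays, so a change shared by most transcripts would be hidden. RNA had an integrity number of at least 7.0 and was amplified, per the series' design text. The genome build used by the authors is not given in the sources used here. Of 22626 probe sets, 18003 carried 1 gene symbol and were used, 287 carried several and 4336 none. Symbols were updated through RefSeq (17977 matched). Genes that cleared the array's 40th percentile on enough arrays to fill the smallest group were tested with limma 3.58.1 in R 4.3.3 (lmFit, eBayes), two-sided, with Benjamini-Hochberg adjustment. The 10 fresh arrays, the 9 medium and fresh wild-type arrays, and the 12 incubated arrays were fitted separately. The fits were also run on simulated data with independent noise and few changed genes. That run does not measure how reliable the calls here are.

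The genes, lists and tests were chosen with earlier results of these data known. Described by array were the genes that passed in a comparison, the 12 largest where more passed, and always Mki67, Top2a, Pcna, Cdca7l and the D cyclins. Mcm3, Tyms, Rrm1, Gmnn, Nusap1 and Tpx2 were added after their values were seen. Of each other list up to 3 passing genes are named per comparison. Alternatives were median centring, cyclic loess, no filter, a filter at the 50th percentile, the mean of all probe sets, 1 fit of all arrays and leaving out each array.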

Additional observations from a re-analysis of the deposited data

How the results depend on the processing

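None of the 34 calls of the set changed sign under the alternatives run. Calls of the set that passed under every alternative in which they were tested were 14 of 18 for medium against fresh wild type, 0 of 1 for ApoE -/- against wild type, 1 of 2, 0 of 1 and 2 of 4 for LPS, oxLDL and oxPAPC against medium, and 0 of 1, 1 of 3 and 0 of 4 for LPS against oxLDL, LPS against oxPAPC and oxLDL against oxPAPC. With the filter at the 50th percentile 11 genes passed in medium, because 19 entered the test in place of 29. With no filter 0 passed in ApoE -/- against wild type. With all 22 arrays in 1 fit 1 passed for LPS against medium and 0 for LPS against oxLDL; the cause was not tested. Leaving out 1 array gave 15 to 19 passing genes in medium, 0 to 1 in ApoE -/-, 1 to 2 with LPS, 0 to 1 with oxLDL, 2 to 3 with oxPAPC, and 0 to 1, 1 to 3 and 0 to 4 in the direct comparisons in the order above. No paired analysis was possible because the groups compared share at most 1 replicate number. The small number of arrays, at most 6 a group, limits every value, and 18 of the 47 genes lay too near background to be tested.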
